A study of Mus musculus with 8 samples.

Results

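The genes described here are the heat shock proteins, their J-domain partners, the chaperonin subunits and 2 heat shock factors of mouse embryos at the 2-cell stage. They were chosen by gene symbol: every symbol that begins with Hspa, Hspb, Hspd, Hspe, Hsph, Hsp90, Dnaja, Dnajb or Dnajc, together with Hsf1, Hsf2, Tcp1 and the Cct subunits numbered 2 to 8, with pseudogenes left out. The rule gave 84 of the 37310 genes in the count tables. They were compared between 4 pools of embryos labelled as knocked out for both Gadd45a and Gadd45b (DKO) and 4 pools of wild-type (WT) embryos, by RNA-seq of polyA RNA. Gadd45a and Gadd45b encode small proteins induced by DNA damage and other stress, with known roles in the cell cycle, in DNA repair and in active removal of DNA methylation.

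Each pool held between 23 and 35 embryos of 1 litter. In both genotypes the mice were C57BL/6N, and the females, 3 to 4 weeks old, were superovulated and mated naturally, with embryos collected 20 h after the vaginal plug. The females had the genotype of the group, so loss of the genes in the oocyte and loss in the embryo cannot be told apart. The sources used here do not describe the knockout alleles. Library totals were 21329736 to 22762460 counts in DKO pools and 21834809 to 23919114 counts in WT pools. CPM values are counts scaled to library size with edgeR's TMM factors, and fold changes are log2 values of DKO over WT with their standard errors.

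The knocked-out genes were examined first. Gadd45b was at 0.179, 0.615, 0.0442 and 0.267 CPM in DKO pools, against 39.3, 43.5, 62.3 and 36.1 CPM in WT pools, and it fell in DKO pools (log2 fold change −7.33 ± 0.42, edgeR adjusted p = 5.63e-07). Gadd45a was at 10.6, 10.8, 7.21 and 8.94 CPM in DKO pools and at 20.8, 15.7, 22.4 and 20.9 CPM in WT pools. Its groups did not overlap, but its log2 fold change of −1.09 ± 0.22 did not pass in edgeR (adjusted p = 0.303) and passed in DESeq2 (adjusted p = 0.000899). Gadd45a thus kept 0.471 of its WT level, and whether these reads come from a part of the gene that was not deleted was not tested. Summed 2-cell embryo markers were at 1122 to 1621 CPM in DKO pools and 1322 to 1616 CPM in WT pools. Within that list of 5, Tdpoz4 (log2 fold change −0.88, edgeR adjusted p = 0.469) and Usp17lb (−0.49, edgeR adjusted p = 0.469) were lower in every DKO pool than in any WT pool, Zfp352 was at 0.37, Zscan4d at 0.10 and Eif1a at −0.16, and none passed. The part of this in the values below was not tested. Cumulus and granulosa markers summed to 8.04 to 14.1 CPM in DKO pools and 8.78 to 13.4 CPM in WT pools, with 3 of 10, Amh, Foxl2 and Ptx3, at 0 in every pool. Most of this sum came from Tnfaip6, with a mean of 8.75 CPM in DKO pools and 7.94 CPM in WT pools. Cyp19a1 was also detected in every pool, with means of 2.42 CPM in DKO pools and 1.77 CPM in WT pools. Spermatozoa markers summed to 1.11 to 2.37 CPM in DKO pools and 0.518 to 1.47 CPM in WT pools, with Smcp at 0 in every pool. Odf1 (means of 0.755 CPM in DKO pools and 0.473 in WT pools) and Prm2 (0.599 and 0.267) had counts in every pool. Blastocyst-stage markers summed to 0.489 to 3.17 CPM in DKO pools and 0.983 to 4.29 CPM in WT pools. Oocyte-derived markers summed to 1984 to 3446 CPM in DKO pools and 1533 to 2310 CPM in WT pools. In a pooled sample, fewer cells of a type and less RNA per cell cannot be told apart.

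Heat shock proteins are chaperones that bind unfolded or newly made proteins and use ATP to help them fold. HSP70 proteins are loaded with clients by J-domain proteins and reset by nucleotide exchange factors such as the HSP110 proteins, HSP90 matures kinases and steroid receptors, and the ring-shaped TRiC/CCT chaperonin folds actin and tubulin. The inducible HSP70 genes Hspa1a and Hspa1b are known as early transcripts of the mouse embryo, where they are used as markers of the first activation of the embryo's own genome, and the heat shock factor HSF1 is known as a maternal factor needed by the early embryo.

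Regulatory letters near the starts of these genes were read from windows of 250 bases before to 50 bases after each transcription start, from RefSeq on GRCm38.p6. The counts themselves were made on an earlier build, NCBIM37 or mm9 per the submitters' processing notes. Windows were found for 68 of the 84 genes. Those without a window included Hspa8, Hsp90aa1, Hsp90ab1, Hsf1, Hspa13 and Dnajc22. The heat shock element, the site that HSF proteins bind, was searched as GAANNTTCNNGAA or, on the other strand, TTCNNGAANNTTC. It was in the windows of 4 of the 68 genes (5.88%), against 0.662% of 27025 genes with a window. Those 4 genes were Hspd1 and Hspe1, which share a promoter, Dnajb6 and Hsph1. Only exact matches inside the windows were counted, so elements that differ in any letter or lie elsewhere are missed. Hspa1a, Hspa1b, Dnajb1 and Hspb1 had no match to it. The ER stress element, searched as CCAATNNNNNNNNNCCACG and its reverse complement, was in 3 of the 68 genes (4.41%), against 0.137% of all genes with a window. Those 3 were Hspa5, Hsp90b1 and Dnajc3, whose proteins all work in the endoplasmic reticulum. The lines below show the stretches that hold these matches, and the promoters of the near-identical pair Hspa1a and Hspa1b with the shorter element GAANNTTC. Either GAANNTTC or the other order of its parts, TTCNNGAA, was in 27.9% of the 68 genes and 17.0% of all genes with a window. Each stretch runs 5′ to 3′ on the gene's own strand, and capitals mark the matched element. The pair was chosen because its members can be told apart at few bases, 3 of the 250 before the start, and the others because the results below return to them.
Hspa1a, chr17:34972247-34972371, minus strand: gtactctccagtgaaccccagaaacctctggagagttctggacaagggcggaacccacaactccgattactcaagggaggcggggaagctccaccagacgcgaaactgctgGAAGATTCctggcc
Hspa1b, chr17:34959329-34959453, minus strand: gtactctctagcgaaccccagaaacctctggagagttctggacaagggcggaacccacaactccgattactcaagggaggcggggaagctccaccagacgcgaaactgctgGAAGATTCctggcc
Hspe1, chr1:55088053-55088082, plus strand: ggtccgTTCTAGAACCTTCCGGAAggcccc
Dnajb6, chr5:29735828-29735885, plus strand: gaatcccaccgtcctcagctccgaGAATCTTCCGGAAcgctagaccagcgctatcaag
Hspa5, chr2:34771985-34772058, plus strand: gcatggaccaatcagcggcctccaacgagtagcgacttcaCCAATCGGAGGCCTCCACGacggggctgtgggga
Hsp90b1, chr10:86705523-86705666, minus strand: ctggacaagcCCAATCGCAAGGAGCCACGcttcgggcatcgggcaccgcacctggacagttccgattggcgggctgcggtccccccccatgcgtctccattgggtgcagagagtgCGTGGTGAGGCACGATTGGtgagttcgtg
Dnajc3, chr14:118937807-118937865, plus strand: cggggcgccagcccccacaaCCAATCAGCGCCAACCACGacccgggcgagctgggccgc
In the Hspe1 stretch 2 matches overlap and make the capital run longer than 1 element, and in the Hsp90b1 stretch 1 match lies on each strand. The Hsph1 match lies after the start and is not shown. A match describes the letters of these windows and was not tested as a binding site.

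Of the 84 genes, 75 had enough counts to be tested. By edgeR's quasi-likelihood test with Benjamini-Hochberg adjustment over all 14970 genes tested, 0 of the 75 changed at an adjusted p of 0.05, where 0.0267% of all genes did, 0.00668% higher and 0.02% lower in DKO pools. DESeq2 called 0 of the 75, where it called 0.314% of all genes, and limma-voom called 0, where it called 0.0334% of all genes. At an unadjusted p of 0.05, 5 of the 75 passed in edgeR (6.67%), where 10.2% of all genes did. Of the 5, 2 were higher in DKO pools, where 5.79% of all genes were, and 3 were lower, where 4.44% of all genes were. The pools of the genotypes did not overlap for 4 of the 75 (5.33%), where they did not for 5.34% of all genes. Of the 4, 2 lay higher in DKO pools, where 2.79% of all genes did, and 2 lay lower, where 2.55% did. Neither total share of the members was larger than that over all genes.

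With TMM scaling the direction leaned to lower levels in DKO pools. Of the 75 log2 fold changes, 28 were positive and 47 were negative (62.7%), where 51.2% of all genes tested were positive and 48.8% negative. Their median was −0.10, with quartiles of −0.30 and 0.11, where the median over all genes was 0.01 with quartiles of −0.23 and 0.30. Together the 84 genes took 1.04% ± 0.0967 of the counts in DKO pools and 1.11% ± 0.0762 in WT pools (SD, n = 4 each). The class medians ran from −0.35, for the 2 genes chosen by symbol prefix alone, to 0.27, for the 2 heat shock factors. The classes with every tested member lower in DKO pools were TRiC/CCT (9 genes), HSP90 (3 genes) and the pair of genes chosen by symbol prefix alone. Those with every member higher, each of only 2 genes, were the mitochondrial chaperonin and the heat shock factors. Over 18 other settings and libraries left out, the sign was reversed in 8 for Hsp90b1, which was at 0.04 with library size alone. It was reversed in 3 for Hsf1 and in 2 for Hspe1.

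**Figure D1:**
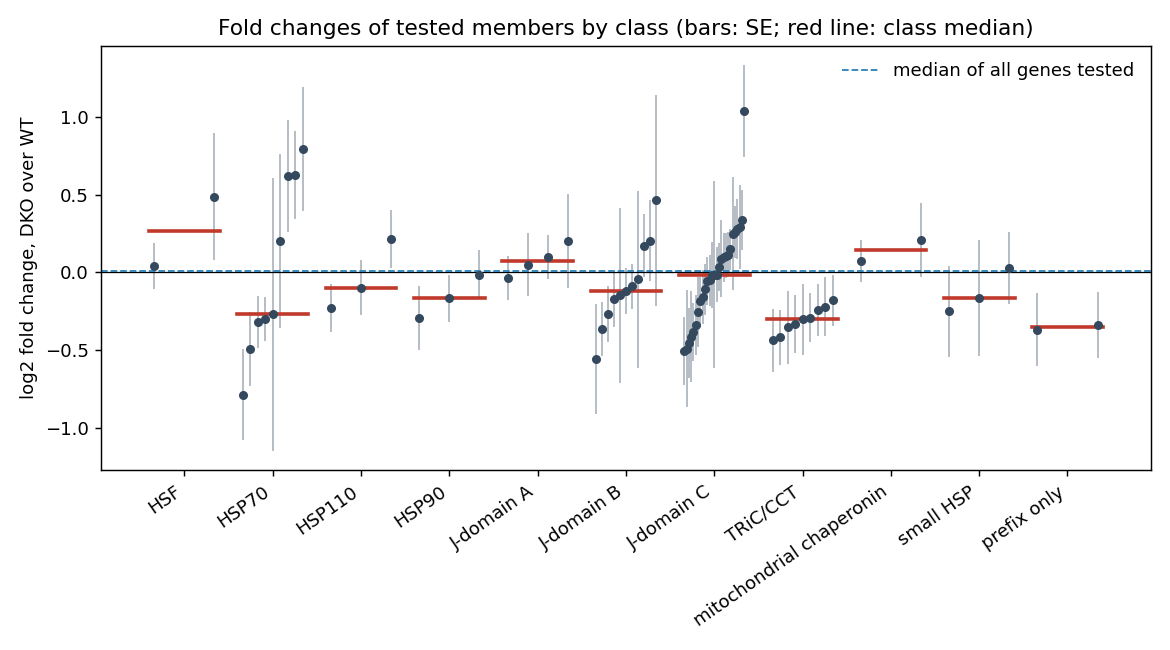
Log2 fold change of DKO over WT (vertical axis) for each of the 75 tested genes, 1 point per gene with its SE, grouped by class (horizontal axis), with a red line at the class median and a dashed line at the median of all genes tested. The TRiC/CCT points lie between −0.44 and −0.18, all below 0, and the class median is −0.30.

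The heat shock factors, which switch on the inducible heat shock genes when proteins unfold, were both tested. Hsf1 was at 78.0, 68.2, 70.9 and 86.3 CPM in DKO pools and at 71.9, 79.3, 65.7 and 77.7 CPM in WT pools. The groups overlapped, and the log2 fold change was 0.04 ± 0.15 (edgeR adjusted p = 0.932). Hsf2 was at 3.00, 3.73, 3.40 and 5.83 CPM in DKO pools and at 1.08, 2.25, 4.20 and 3.84 CPM in WT pools, with a log2 fold change of 0.49 ± 0.41 (edgeR adjusted p = 0.653) that was 0.21 without WT replicate 1 and 0.73 without WT replicate 3.

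Hspa1a, the marker of early genome activation, was near the bottom of the family per kilobase of exon in both genotypes. Its level is uncertain, since it shares the read-length windows given below with other genes. Its counts were 29, 16, 32 and 41 in DKO pools and 16, 18, 55 and 13 in WT pools, or 1.30, 0.703, 1.42 and 1.82 CPM in DKO pools and 0.691, 0.827, 2.46 and 0.581 CPM in WT pools. The groups overlapped throughout, since the highest and the lowest pool of all 8 were both WT. The log2 fold change was 0.20 ± 0.56 (edgeR adjusted p = 0.912), and it moved between −0.02 without WT replicate 4 and 0.89 without WT replicate 3, with adjusted p of 0.994 and 0.508. The coefficient of variation between the WT pools was 77.7%, and with an SE of this size a 2-fold difference could not be detected between these pools.

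Hspa1b, the neighbouring copy of Hspa1a, was at 7.02, 2.24, 3.32 and 6.45 CPM in DKO pools and at 1.60, 2.80, 3.71 and 2.86 CPM in WT pools. DKO replicates 1 and 4 were above all WT pools, and the other DKO pools were inside the WT range (log2 fold change 0.79 ± 0.40, edgeR adjusted p = 0.494). The pair's sequences are so alike that the split of reads between them is uncertain: 59.8% of the 85-base windows of the longest Hspa1a transcript, the length of a read, also occur in transcripts of another gene, and 50.4% occur in Hspa1b. The counts were therefore also summed, but if reads with several matches were not counted, the sum lacks them too. The sum was 8.32, 2.94, 4.73 and 8.28 CPM in DKO pools and 2.29, 3.63, 6.17 and 3.44 CPM in WT pools. These groups overlapped as well, with a log2 fold change of 0.64 ± 0.38 (edgeR adjusted p = 0.543).

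The constitutive HSP70 genes Hspa5, Hspa8 and Hspa9 lay in the opposite direction, without passing the test. The median of the 9 tested HSP70 genes was −0.27, and its sign depended on the setting. It was 0.16 with limma-voom, 0.27 with a replicate block and 0.43 without WT replicate 3. Hspa5, the chaperone BiP of the endoplasmic reticulum, was at 358, 393, 352 and 444 CPM in DKO pools and at 515, 441, 432 and 515 CPM in WT pools. Only DKO replicate 4 reached the WT range, and the log2 fold change was −0.30 ± 0.14 (edgeR adjusted p = 0.489). Hspa8, the main HSP70 of the cytosol, was at 120.2, 211, 197 and 237 CPM in DKO pools and at 329.8, 208, 182 and 356 CPM in WT pools. Its WT pools split into a high and a low pair, and all DKO pools but replicate 1 lay within the WT range (log2 fold change −0.49 ± 0.24, edgeR adjusted p = 0.489). Hspa8 shared 66.3% of its 85-base windows with other genes, most of all with its copy Gm15459, so its level is uncertain. Hspa9, the HSP70 of mitochondria, was at 103, 132, 142 and 145 CPM in DKO pools and 186, 151, 127 and 187 CPM in WT pools (log2 fold change −0.32 ± 0.17, edgeR adjusted p = 0.506).

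Hspa13 and Hspa2 were the HSP70 genes with an unadjusted p under 0.05. Hspa13, a microsomal HSP70 relative without a peptide-binding domain, was at 2.41, 2.24, 3.49 and 3.38 CPM in DKO pools and at 5.09, 4.27, 5.05 and 5.50 CPM in WT pools. All DKO pools were below all WT pools, with a log2 fold change of −0.79 ± 0.29 that did not pass (edgeR adjusted p = 0.469). Hspa2, an HSP70 best known for its part in male meiosis, was at 35.3, 17.2, 39.5 and 22.0 CPM in DKO pools and 15.7, 19.2, 26.3 and 12.4 CPM in WT pools. DKO replicates 1 and 3 were above all WT pools, and the log2 fold change was 0.63 ± 0.28 (edgeR adjusted p = 0.480). Hspa12a, a divergent relative, was at 5.63, 3.12, 3.80 and 3.11 CPM in DKO pools and at 1.30, 2.99, 3.26 and 2.64 CPM in WT pools. Its groups overlapped (log2 fold change 0.62 ± 0.36, edgeR adjusted p = 0.538). The share of Hspa8 in the summed CPM of Hspa8, Hspa1a, Hspa1b and Hspa2 was 73.4%, 91.3%, 81.6% and 88.7% in DKO pools and 94.8%, 90.1%, 84.9% and 95.7% in WT pools. These shares overlapped, and averaged 83.7% ± 8.03 in DKO pools and 91.4% ± 4.98 in WT pools (SD, n = 4 each).

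**Figure D2:**
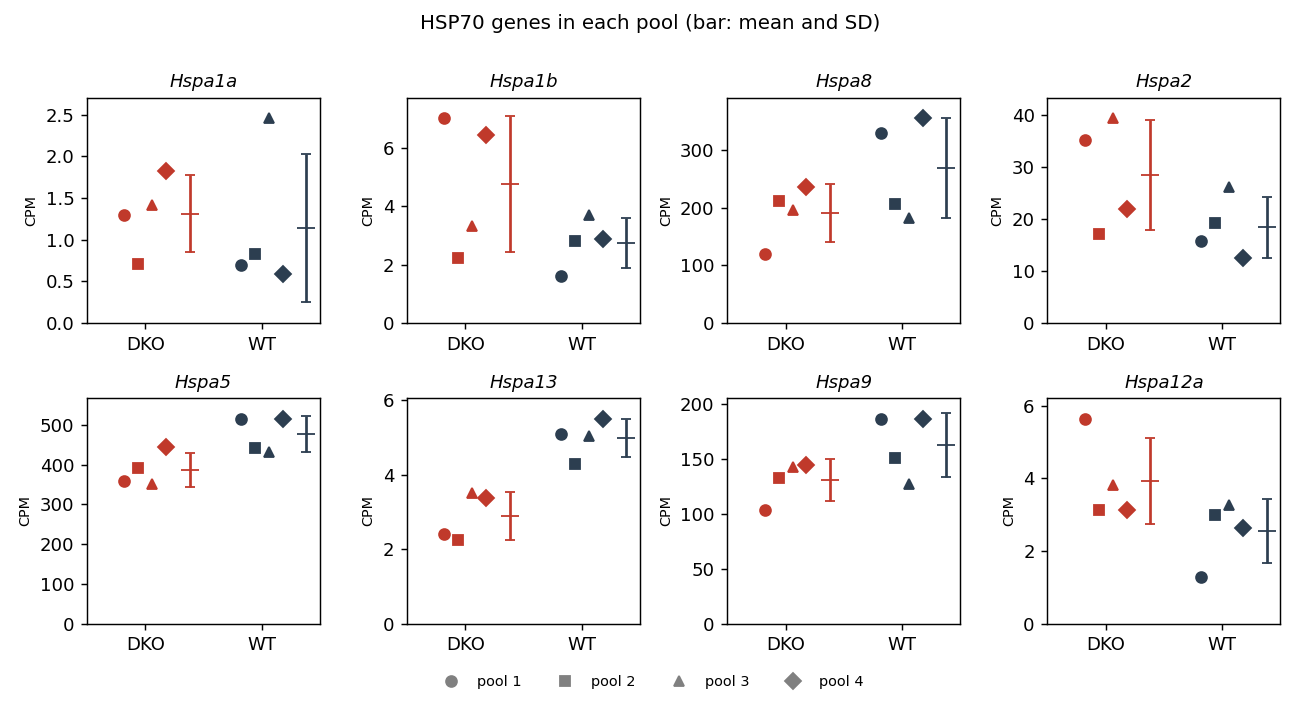
CPM (vertical axis, linear from 0) of 8 HSP70 genes in each pool, DKO left of WT, 1 marker shape per pool number, with the mean and SD of each group as a bar to its right. Hspa1a overlaps between genotypes, whereas the 4 DKO pools of Hspa13 (2.24 to 3.49 CPM) lie below its WT pools (4.27 to 5.50 CPM).

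The HSP110 proteins, which help HSP70 release ADP, overlapped between genotypes. Hspa4 was at 103, 186, 136 and 149 CPM in DKO pools and at 135, 152, 149 and 178 CPM in WT pools (log2 fold change −0.10 ± 0.18, edgeR adjusted p = 0.846), and without DKO replicate 1 its fold change was 0.02. Hsph1 averaged 103 ± 16.1 CPM in DKO pools and 120.5 ± 10.8 CPM in WT pools (log2 fold change −0.23 ± 0.15, edgeR adjusted p = 0.581). Hspa4l averaged 38.3 ± 5.58 CPM in DKO pools and 33.0 ± 6.39 CPM in WT pools (log2 fold change 0.22 ± 0.19, edgeR adjusted p = 0.674).

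The HSP90 genes all had negative fold changes with TMM scaling, and none passed. Hsp90aa1, the inducible cytosolic form, was at 332, 463, 384 and 407 CPM in DKO pools and at 425, 437, 395 and 523 CPM in WT pools (log2 fold change −0.17 ± 0.15, edgeR adjusted p = 0.688). Hsp90ab1, the constitutive cytosolic form, was at 210.3, 319, 278 and 322 CPM in DKO pools and at 324, 309, 254 and 497 CPM in WT pools (log2 fold change −0.29 ± 0.20, edgeR adjusted p = 0.594), and without WT replicate 4 the fold change was −0.07. Both overlapped between genotypes, and Hsp90aa1 made 58.6% ± 2.25 of the cytosolic HSP90 CPM in DKO pools and 56.9% ± 4.10 in WT pools (SD, n = 4 each). Hsp90aa1 shared 51.1% of its 85-base windows with other genes. Hsp90b1, the HSP90 of the endoplasmic reticulum with the ER stress element printed above, averaged 171 ± 30.8 CPM in DKO pools and 173 ± 21.4 CPM in WT pools. Its log2 fold change of −0.01 ± 0.16 changed sign with the scaling, being 0.04 with library size alone (edgeR adjusted p = 0.981 with TMM).

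J-domain proteins bring clients to HSP70 and stimulate its ATPase. Of type A, Dnaja2 averaged 496 ± 34.4 CPM in DKO pools and 463 ± 53.4 CPM in WT pools (log2 fold change 0.10 ± 0.14, edgeR adjusted p = 0.804). Dnaja1, also cytosolic, averaged 195 ± 32.5 CPM in DKO pools and 188 ± 56.6 CPM in WT pools (log2 fold change 0.05 ± 0.20, edgeR adjusted p = 0.941). The mitochondrial Dnaja3 averaged 63.2 ± 4.94 CPM in DKO pools and 64.9 ± 3.65 CPM in WT pools, with a log2 fold change of −0.04 ± 0.14 that was 0.02 with library size alone (edgeR adjusted p = 0.941 with TMM).

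Type B held the highest member of the whole family per length. Dnajb9, a BiP partner of the endoplasmic reticulum, was at 1313, 1649, 1623 and 1759 CPM in DKO pools and at 1649, 1605, 1626 and 1873 CPM in WT pools. The groups overlapped (log2 fold change −0.09 ± 0.14, edgeR adjusted p = 0.828). Dnajb14, of the ER membrane, averaged 312 ± 47.9 CPM in DKO pools and 339 ± 25.4 CPM in WT pools (log2 fold change −0.12 ± 0.15, edgeR adjusted p = 0.774). Dnajb1, the classic HSP40 partner of HSP70, was at 81.7, 85.4, 127 and 104 CPM in DKO pools and at 149.7, 129.8, 104 and 129 CPM in WT pools. DKO replicates 1 and 2 were below all WT pools, and the log2 fold change was −0.36 ± 0.17 (edgeR adjusted p = 0.489). Dnajb6, which keeps proteins from aggregating and whose promoter holds the heat shock element printed above, averaged 211 ± 35.3 CPM in DKO pools and 255 ± 58.4 CPM in WT pools (log2 fold change −0.27 ± 0.18, edgeR adjusted p = 0.580), and without WT replicate 4 the fold change was −0.10. Dnajb6 shared 38.2% of its 85-base windows with other genes. Dnajb4, another cytosolic HSP40, reached 68.6 to 116 CPM in DKO pools and 60.1 to 99.97 CPM in WT pools (log2 fold change 0.17 ± 0.20, edgeR adjusted p = 0.761).

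Type C, which shares only the J domain, was the largest class and had the 3 other genes whose pools did not overlap. Dnajc22, a membrane protein whose fly relative wurst acts in endocytosis, was at 6.04, 6.37, 5.04 and 4.85 CPM in DKO pools and at 2.59, 2.71, 3.62 and 1.92 CPM in WT pools. Its counts were 135, 145, 114 and 109 in DKO pools and 60, 59, 81 and 43 in WT pools. All DKO pools were above all WT pools, with a fold of 2.05 and a log2 fold change of 1.04 ± 0.30. It was the member with the smallest unadjusted p (0.00335), ranked 91 of 14970 genes, and it did not pass the adjustment over all genes (edgeR adjusted p = 0.469, DESeq2 adjusted p = 0.120). Its log2 fold change was 0.90 to 1.20 over 17 other settings and libraries left out, with adjusted p of 0.120 to 0.894.

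Dnajc30, a mitochondrial protein, was at 6.53, 5.84, 8.58 and 8.77 CPM in DKO pools and at 9.84, 10.1, 10.5 and 10.2 CPM in WT pools. The 4 WT pools lay close together, above all DKO pools, and the log2 fold change was −0.45 ± 0.23 (edgeR adjusted p = 0.492). Dnajc14, a protein of the ER membrane, was at 34.3, 27.0, 29.0 and 30.2 CPM in DKO pools and at 23.8, 26.7, 26.5 and 23.4 CPM in WT pools, with the lowest DKO pool just above the highest WT pool (log2 fold change 0.26 ± 0.17, edgeR adjusted p = 0.565). Both genes overlap a neighbour on the opposite strand, Dnajc30 over 26.2% of its exon bases with Bud23 and Dnajc14 over 17.0% with Ormdl2. The sources used here do not say whether the counting used strand, so reads of the neighbours cannot be told apart.

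Dnajc10, a disulfide reductase that works with BiP in the endoplasmic reticulum, was at 16.0, 11.3, 12.3 and 16.2 CPM in DKO pools and at 23.9, 21.6, 19.1 and 14.7 CPM in WT pools. WT replicate 4 lay inside the DKO range, and the log2 fold change was −0.51 ± 0.22 (edgeR adjusted p = 0.475). The next 4 genes overlapped between genotypes. Dnajc21, which acts in ribosome assembly, averaged 641 ± 56.4 CPM in DKO pools and 599.5 ± 106 CPM in WT pools (log2 fold change 0.10 ± 0.16, not past the threshold). Dnajc8, a splicing-associated protein, averaged 284 ± 10.6 CPM in DKO pools and 256 ± 20.5 CPM in WT pools (log2 fold change 0.15 ± 0.13, edgeR adjusted p = 0.673). Dnajc15, of the inner mitochondrial membrane, averaged 172 ± 48.7 CPM in DKO pools and 218 ± 35.7 CPM in WT pools (log2 fold change −0.34 ± 0.20, edgeR adjusted p = 0.534). Dnajc3, an ER co-chaperone with the ER stress element printed above, averaged 121 ± 15.3 CPM in DKO pools and 125 ± 19.6 CPM in WT pools (log2 fold change −0.05 ± 0.16, edgeR adjusted p = 0.914).

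**Figure D3:**
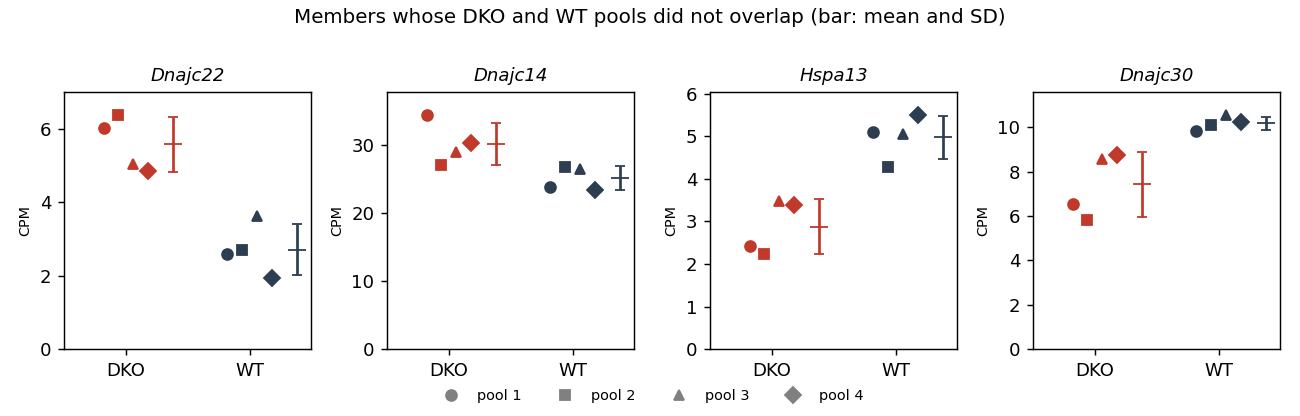
CPM (vertical axis, linear from 0) of the 4 genes whose pools did not overlap, DKO left of WT, 1 marker shape per pool number, with the mean and SD of each group as a bar to its right. Dnajc22 and Dnajc14 lie higher in every DKO pool and Hspa13 and Dnajc30 lie lower, and none of the 4 passed the adjusted threshold of 0.05.

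The TRiC/CCT chaperonin was the class with the most even direction. All 9 genes had a negative log2 fold change, from −0.44 for Tcp1 to −0.18 for Cct8, with a median of −0.30, where the median over all genes was 0.01. None of the 9 passed in edgeR, and 1 of the 9, Cct7, had an unadjusted p under 0.05 with a lower level in DKO pools (11.1%, where 4.44% of all genes did). Their CPM summed to 1921, 3092, 3041 and 2965 in DKO pools and to 3396, 3175, 2905 and 4072 in WT pools. DKO replicate 1 was far below the others, and the other DKO pools were inside the WT range.

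Tcp1, the alpha subunit of the ring, was at 371, 783, 655 and 626 CPM in DKO pools and at 850.5, 781, 671 and 998 CPM in WT pools (log2 fold change −0.44 ± 0.21, edgeR adjusted p = 0.488), and without DKO replicate 1 the fold change was −0.27. Tcp1 shared 20.7% of its 85-base windows with other genes, most of all with Acat3. Cct7, the eta subunit, was at 60.9, 107, 88.9 and 97.9 CPM in DKO pools and at 115, 128, 103 and 128 CPM in WT pools. Only DKO replicate 2 reached the WT range, and the log2 fold change was −0.42 ± 0.18 (edgeR adjusted p = 0.471). Cct8, the theta subunit and the highest of the 9 per kilobase of exon, was at 726, 997, 1087 and 1045 CPM in DKO pools and at 1065, 964, 1044 and 1293 CPM in WT pools (log2 fold change −0.18 ± 0.16, edgeR adjusted p = 0.686). It made 35.3% ± 2.28 of the summed TRiC/CCT CPM in DKO pools and 32.4% ± 2.46 in WT pools (SD, n = 4 each). Cct3, the gamma subunit, averaged 422 ± 92.1 CPM in DKO pools and 532 ± 95.3 CPM in WT pools (log2 fold change −0.33 ± 0.19, edgeR adjusted p = 0.524). Cct6b, a testis form of the zeta subunit, was also present, at 10.6 ± 2.65 CPM in DKO pools and 13.0 ± 1.35 CPM in WT pools (log2 fold change −0.30 ± 0.23, edgeR adjusted p = 0.620). The remaining ring subunits had fold changes of the same sign. Cct2 averaged 125 ± 31.6 CPM in DKO pools and 146 ± 20.9 CPM in WT pools, with a log2 fold change of −0.22 ± 0.19. Cct4 averaged 212 ± 54.7 CPM in DKO pools and 271 ± 84.5 CPM in WT pools, with a log2 fold change of −0.35 ± 0.23. These are the beta and delta subunits, and Cct5 and Cct6a are the epsilon and zeta subunits. Cct5 averaged 182 ± 27.4 CPM in DKO pools and 223 ± 31.9 CPM in WT pools, with a log2 fold change of −0.29 ± 0.16. Cct6a averaged 141 ± 27.3 CPM in DKO pools and 167 ± 20.6 CPM in WT pools, with a log2 fold change of −0.24 ± 0.17. Their edgeR adjusted p ran from 0.516 for Cct5 to 0.668 for Cct2, and all 4 overlapped between genotypes.

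DKO replicate 1 and WT replicate 4 each carried a part of the TRiC/CCT difference. DKO replicate 1 was the lowest of the 8 pools in 8 of the 9 genes (88.9%), all but Cct6b, in 41.3% of the 75 tested members and in 25.1% of all genes tested. WT replicate 4 was the highest in 6 of the 9 (66.7%), in 30.7% of the members and in 17.5% of all genes. Without DKO replicate 1 the class median was −0.20, without WT replicate 4 it was −0.22, and all 9 genes stayed negative in both. DKO replicate 1 also stood apart in the oocyte-derived marker Oosp1, at 2077 CPM, where the other DKO pools had 1040, 1025 and 1082 CPM and the WT pools 773, 906, 1114 and 655 CPM. In the rest of that list DKO replicate 1 was also the highest pool for Bmp15, Gdf9 and Mos. It was the lowest for Zp3 and inside the range of the other pools for Zp1, Zp2 and Nlrp5. The part of these marker differences in the TRiC/CCT values was not tested.

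**Figure D4:**
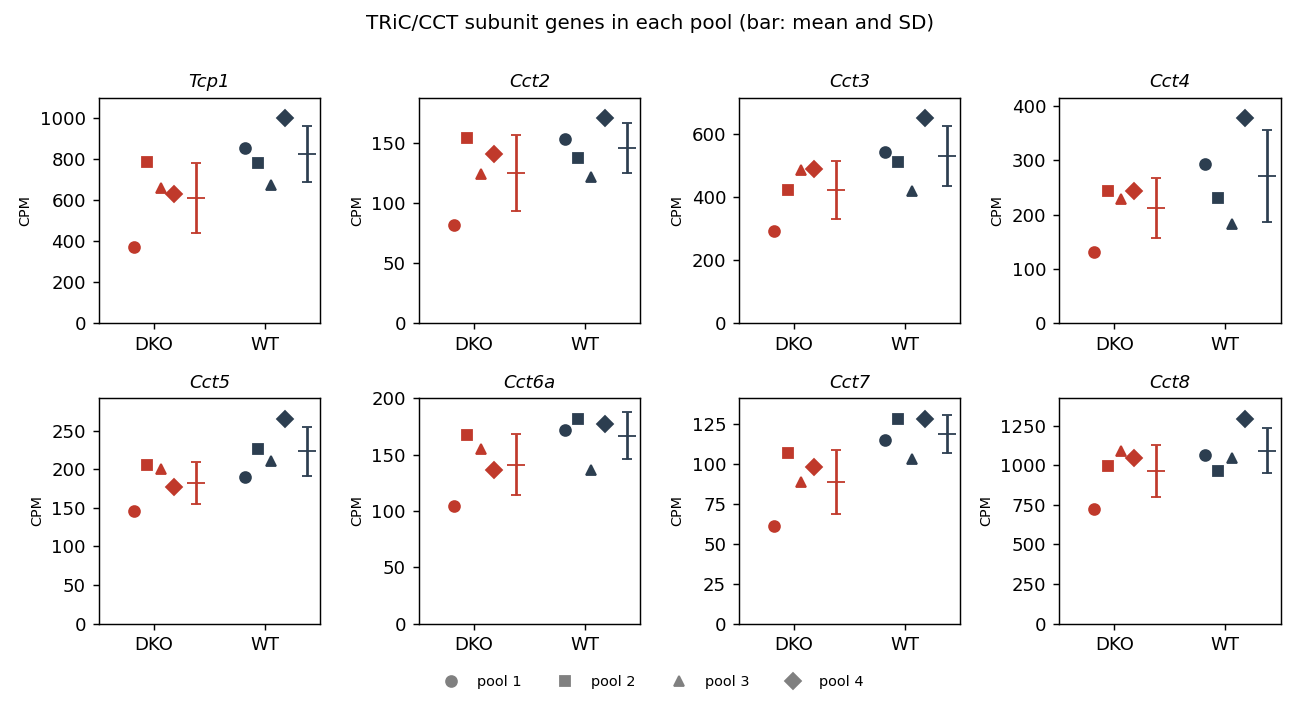
CPM (vertical axis, linear from 0) of 8 TRiC/CCT genes, without Cct6b, in each pool, DKO left of WT, 1 marker shape per pool number, with the mean and SD of each group as a bar to its right. DKO replicate 1 (circle) is the lowest of the 8 pools in each of these 8 genes, and other DKO pools mix with the WT pools in most of them.

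The mitochondrial chaperonin differed in the opposite direction by little. Hspd1, HSP60, was at 86.7, 94.8, 87.0 and 83.5 CPM in DKO pools and at 78.7, 82.6, 89.0 and 83.7 CPM in WT pools (log2 fold change 0.08 ± 0.14, edgeR adjusted p = 0.845). Hspe1, its HSP10 lid, which shares the promoter printed above, was at 57.0, 35.3, 32.8 and 32.5 CPM in DKO pools and at 25.1, 30.3, 48.9 and 31.8 CPM in WT pools. DKO replicate 1 was again apart, here as the highest pool, and without it the log2 fold change of 0.21 ± 0.24 (edgeR adjusted p = 0.749) was −0.03. The ratio of Hspd1 to Hspe1 in CPM was 2.36 ± 0.561 in DKO pools and 2.58 ± 0.549 in WT pools (SD, n = 4 each), a difference smaller than the spread.

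Small heat shock proteins hold unfolded proteins without ATP, and 3 of the 8 could be tested. Hspb1, HSP27 of human cells and HSP25 of the mouse, was at 35.1, 45.1, 50.4 and 57.3 CPM in DKO pools and at 31.1, 47.0, 68.8 and 37.3 CPM in WT pools (log2 fold change 0.03 ± 0.23, edgeR adjusted p = 0.972). It shared 45.5% of its 85-base windows with other genes. Hspb6 averaged 7.33 ± 3.68 CPM in DKO pools and 8.23 ± 3.16 CPM in WT pools (log2 fold change −0.17 ± 0.37, edgeR adjusted p = 0.881). Hspb11, which despite its symbol is a subunit of the transport machinery of cilia, averaged 4.86 ± 1.41 CPM in DKO pools and 5.78 ± 1.17 CPM in WT pools (log2 fold change −0.25 ± 0.29, edgeR adjusted p = 0.758). Of the pair chosen by prefix alone, Hspbp1, a nucleotide exchange factor of HSP70, averaged 52.0 ± 13.5 CPM in DKO pools and 65.8 ± 14.3 CPM in WT pools (log2 fold change −0.34 ± 0.21, edgeR adjusted p = 0.564). Hspbap1, which binds Hspb1, averaged 42.1 ± 11.6 CPM in DKO pools and 54.3 ± 15.2 CPM in WT pools (log2 fold change −0.37 ± 0.24, edgeR adjusted p = 0.566).

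The 9 genes with too few counts for a test were Hspa12b, Dnajb5, Dnajb8, Dnajc6, Hspb2, Hspb3, Hspb7, Hspb8 and Hspb9. Dnajb8, Hspb2 and Hspb7 had 0 counts in all 8 libraries, which allows a level of up to 0.0338 CPM over the DKO libraries and 0.0328 CPM over the WT libraries at 3 counts per group. Hspb3 had 0 counts in every DKO library and 0, 4, 24 and 4 counts in the WT libraries. WT replicate 3 held most of these counts, and no fold was tested.

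The order of levels between genes was taken from CPM per kilobase of exon, since the shares and the ratio in CPM given above do not allow for length and serve to set the genotypes side by side. Dnajb9 was first in both genotypes, at 622 CPM per kilobase in DKO pools and 662 in WT pools, and Cct8 was next, at 312 in DKO pools and 354 in WT pools. Tcp1 was at 121 CPM per kilobase in DKO pools and 164 in WT pools, Dnaja2 at 167 in DKO pools and 156 in WT pools, and Hspa5 at 91.4 in DKO pools and 113 in WT pools. Per kilobase of the longest transcript Tcp1 was at 249 in DKO pools and 337 in WT pools and Dnaja2 at 170.1 in DKO pools and 159 in WT pools, so that the order of these 2 genes in DKO pools turns with the length used. Dnajb9 and Cct8 were first and next by either length. Hspa8 was at 44.5 CPM per kilobase in DKO pools and 62.5 in WT pools, whereas Hspa1a was at 0.441 in DKO pools and 0.384 in WT pools, 69th and 70th in the order. The levels and places of Hspa8 and Hspa1a are uncertain because of their shared windows, and Tcp1 shared a smaller part of its windows. In CPM, 26 members averaged at least 100 in DKO pools and 29 did in WT pools, and 12 averaged under 1 in DKO pools and 11 in WT pools. Across the tested members, pools of a genotype varied by a median coefficient of variation of 19.9% in DKO pools and 17.7% in WT pools. Among the 55 tested members that averaged at least 10 CPM, it ran from 3.74% for Dnajc8 to 37.3% for Hspa2 in DKO pools, and from 3.21% for Dnajc17 to 35.9% for Hspb1 in WT pools.

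**Figure D5:**
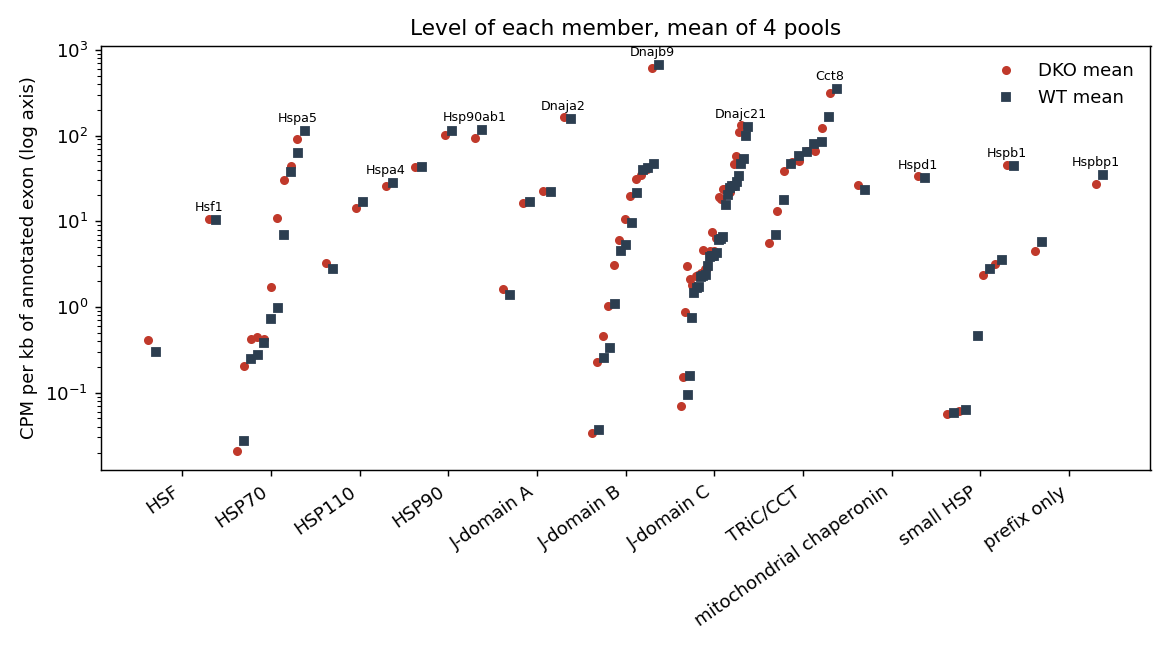
Mean level of 4 pools in CPM per kilobase of exon (vertical log axis) of each member in DKO and WT pools, grouped by class (horizontal axis), with the highest WT level of each class named. Members at 0 in WT pools, and Hspb3 in DKO pools, have no point, and the levels run up to Dnajb9 at 622 in DKO pools and 662 in WT pools.

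Other genes of the pathway were taken from a list of 94 co-chaperones, prefoldin and CCT helpers, HSF partners and inducible genes, and ER folding genes. Of these, 92 were tested, and 0 passed in edgeR, in DESeq2 and in limma-voom, while 2 with a positive and 5 with a negative fold change had an unadjusted p under 0.05 (2.17% and 5.43%, where 5.79% and 4.44% of all genes did). Pools did not overlap for 2 higher and 4 lower in DKO pools (2.17% and 4.35%, where 2.79% and 2.55% of all genes did not). Their log2 fold changes were positive in 31 (33.7%, where 51.2% of all genes were) and had a median of −0.12, where the median over all genes was 0.01. Medians were −0.13 over 41 co-chaperones, −0.17 over 16 prefoldin and CCT helpers, −0.14 over 20 ER genes and 0.07 over the 15 tested of 17 HSF partners and inducible genes.

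Hikeshi, the carrier that takes HSP70 into the nucleus, had the smallest p of the list. It was at 123, 226, 135 and 154 CPM in DKO pools and at 286, 269, 216 and 334 CPM in WT pools. Only DKO replicate 2 reached the WT range, and the log2 fold change of −0.79 ± 0.20 did not pass (edgeR adjusted p = 0.394).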

How the data were processed

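RNA was measured in 4 DKO and 4 WT pools of embryos, each from a separate litter. Per the labels' protocols, cDNA was amplified in 11 PCR cycles with a kit for very low input, libraries were amplified in 11 more, and all 8 were sequenced together as single reads of 85 cycles, with no molecular identifiers, so floors for 0 counts cover no error other than counting. The authors deposited whole-number read counts per gene, not normalized. Per the submitters' processing notes, tools were bcl2fastq 2.19.1, FastQC 0.11.5, STAR 2.5.2b, Subread featureCounts 1.5.1 and DESeq2 1.18.1. Strand and multi-mapping settings of the counting are not given in the sources.

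Symbols, gene types and exon lengths came from GENCODE M21 on GRCm38 (32620 of 37310 identifiers matched). The test was that of edgeR 4.0.16, run in R 4.3.3 (filterByExpr, TMM, robust quasi-likelihood test, Benjamini-Hochberg adjustment, threshold 0.05), without covariates, and the script was tested on simulated data. Each pool is 1 sample, and p-values measure the spread between pools. Pearson's r between pools of a genotype, across genes, was 0.952 to 0.972. Every pair of libraries of a genotype differed by more than sampling noise, with a chi-square of at least 22.2 per degree of freedom.

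The genes, classes and lists were chosen with earlier results of these data known. The genes given with values were Hspa1a, Hspa1b, Hsf1 and Hsf2, up to 3 of the highest mean CPM per class, the smallest p in each direction per class, genes whose pools did not overlap, and the smallest p in each direction of the pathway list, of which the gene with a positive fold change is not reported here. Hspa12a, the other Cct subunits, Dnajc3, Oosp1 with the other oocyte-derived markers, and Hspb3 were named after their values were seen. Alternatives were DESeq2 1.42.0, limma 3.58.1 (voom with sample quality weights), other scalings, filters and thresholds, a replicate block, embryos per pool as a covariate, and libraries left out. The quality weight was lowest for DKO replicate 1, at 0.365, where the other pools had weights of 0.786 to 2.08.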

Additional observations from a re-analysis of the deposited data

Results flagged for a closer look

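Of 114 groups of 4 pools, 1 per genotype and named gene or summed class, 5 held a pool whose gap to its nearest neighbour took most of the group's range by Dixon's criterion. Chance gives about 1 such group in 20. WT replicate 3 was high for Hspa1a, at 2.46 CPM. DKO replicate 1 was high for Hspa4l, at 46.6 CPM, and for Hspe1, at 57.0 CPM, and it was low for the summed TRiC/CCT genes, at 1921 CPM. WT replicate 4 was high for Dnajb9, at 1873 CPM.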

How the results depend on the processing

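In all 19 other settings 0 of the members and 0 of the pathway list passed. Over all genes the count of 4 was 7 with no filter, 1 with a mean of at least 10 CPM and 47 with DESeq2. Of the members, 4 had pools without overlap, against 1 with a mean of at least 10 CPM (1.82%, where 6.16% of all genes had none), 9 with both libraries numbered 1 left out (12%, where 11% had none), and 4 to 14 with 1 library left out. The 4 were without DKO replicate 3 (5.26%, where 8.63% of all genes had none) and the 14 without WT replicate 3 (18.7%, where 13.2% had none). Fewer libraries make separation easier by construction. The members' median stayed between −0.15 and −0.04, while the median over all genes is given with TMM only. With library size alone fewer fold changes were negative than with TMM. The counts were 10 of 27 in J-domain C (15 with TMM) and 7 of 11 in J-domain B (8 with TMM). They were 2 of 3 in HSP90 (3 with TMM) and 0 of 4 in J-domain A (1 with TMM), and other classes kept their counts. The TRiC/CCT median, an alternative chosen after seeing the data, stayed between −0.40 and −0.18 with 9 of 9 genes negative. Deviations of same-numbered pools had r of 0.00235 to 0.078 across genes, inside the range of −0.19 to 0.224 for pools of different numbers. This gave no sign that numbers pair the pools, but with 4 pools per genotype it cannot exclude pairing. With a replicate block 4 genes and 0 members passed, and the TRiC/CCT median was −0.33.

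Fold changes near 0 changed sign, none of them past the threshold in any setting, and the cause was not tested. With library size alone Hsp90b1 was at 0.044 and Dnaja3 at 0.017. With a mean of at least 10 CPM Hsp90b1 was at 0.029. With limma-voom Hsf1 was at −0.0041. With embryos per pool as a covariate Hsp90b1 was at 0.0099 and Hspb1 at −0.12. With both libraries numbered 1 left out Hspa4l was at −0.018, Hspe1 at −0.14 and Hspb1 at −0.0022. With 1 library left out in turn the log2 fold change ran from −0.023 to 0.89 for Hspa1a, −0.025 to 0.088 for Hsf1, −0.25 to 0.024 for Hspa4, −0.15 to 0.049 for Hsp90b1, −0.084 to 0.24 for Dnaja1, −0.0091 to 0.20 for Dnajc21, −0.028 to 0.43 for Hspe1, −0.12 to 0.28 for Hspb1 and −0.43 to 0.070 for Hspb6. Without DKO replicate 1 the fold change was −0.20 for Cct3, −0.20 for Dnajc15, −0.21 for Hspbp1, −0.14 for Hsph1, 0.10 for Hspa4l and −0.38 for Hspb11. A mean of at least 10 CPM gives no value for low members such as Hspa1a and Dnajc22. Depth sets the floor of genes with 0 counts, 0.0338 CPM over the DKO libraries and 0.0328 CPM over the WT libraries.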
